A study of Mus musculus with 3 samples.

Results

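The genes described here are 50 cell cycle genes, 16 of DNA replication, 19 of mitosis and 15 of the G1 phase and the E2F network, listed by name for their known roles, with earlier results of these arrays known when the list was made. Each gene was read from its brightest probe without an outlier flag, by mean log2 signal over the 3 arrays. All 50 were found among 36403 gene names with such a probe, and 49 were measured on all 3 arrays, against 16396 genes in all. Ccnd2, which encodes a D-type cyclin, was the exception, with none of its 3 probes well above background on any array.

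Messenger RNA was measured on 1-colour Agilent mouse arrays in mpkDCT cells, a mouse kidney line of distal convoluted tubule origin that the series title calls mDCT, whose Cyp27b1 gene was disrupted by CRISPR-Cas9. Its product, the 1α-hydroxylase, turns calcidiol, labelled 25(OH)D3, into calcitriol, labelled 1,25(OH)2D3, which binds the vitamin D receptor more tightly, so the compounds differ by that hydroxyl group. One array held cells given calcitriol at 1e-07 M for 24 h, one held cells given calcidiol at the same dose and time, and one held vehicle-treated control cells. All 3 groups carried the knockout and had been in medium without phenol red, holding 2% charcoal-stripped fetal bovine serum, from 24 h before treatment. The sample titles share a tag, siCT, that is not explained in the sources used here, and a description of the calcidiol sample writes its compound with 1 more hydroxyl group than its treatment label, which was followed. Whether the knockout line is 1 clone is not stated in the labels.

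A single array per group leaves every difference without a replicate check, so the text has no p-values. The error after ± combines what the scanner software assigns to the spots on the 2 arrays compared, and holds no variation between cultures. For 226 probes with repeated spots, single-spot differences within an array pair had a median standard deviation of 0.11 for calcitriol against vehicle. It was 0.09 for calcidiol against vehicle and 0.12 between the hormones, on the log2 scale. Between 49.7% and 50.98% of spots were well above background on the 3 arrays. Of 10 distal tubule markers, 2 (Wnk4 and Kcnj10) were above background on every array and 7, among them Slc12a3 and Calb1, on none. Of 8 epithelial markers, 1 (Tjp1) was above background on every array and 6, among them Cdh1 and Krt8, on none, so most defining markers of the labelled origin were not detected. The epithelial set had summed scaled signals of 3557 with calcitriol, 3350 with calcidiol and 3082 with vehicle. Of these, Tjp1 alone gave 3517, 3298 and 3037. Of 6 fibroblast markers, 2 (Col1a1 and Dcn) were above background on every array and 4, among them Pdgfra and Thy1, on none. The fibroblast set had summed scaled signals of 149.1 with calcitriol, 246.6 with calcidiol and 432.1 with vehicle. Of 6 blood and endothelial markers, 3 (Ptprc, Cd68 and Kdr) were above background on every array and 3 on none. Their sums were 520.4, 636.4 and 593.0 on the same arrays. The part of either set in the results below was not tested. In RNA from whole cultures, fewer cells in a phase and less of a transcript per cell cannot be told apart.

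A dividing cell passes from G1, where D-type and E-type cyclins with their kinases phosphorylate the retinoblastoma protein and release E2F factors, into S phase, where the MCM helicase opens origins and DNA is copied. Mitosis then follows under cyclin B and Cdk1, with the spindle checkpoint holding back chromosome separation until every chromosome is attached. Genes of G1/S and of G2/M are transcribed in separate waves, the first largely through E2F sites and the second largely through CHR and CCAAT boxes bound by the DREAM and MuvB complexes and by NF-Y. Vitamin D receptor ligands are known in many cell types for slowing this cycle, with Myc and Cdkn1a among the genes studied.

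The promoters of the 3 sets held these boxes in different shares. A window from 250 bases before to 50 bases after each gene's start was available for 38 of the 50 members in RefSeq (GRCm38.p6), and 3 of them had more than 1 window, of which the first was used. The windows were searched on both strands for CCAAT, for the CHR box, spelled TTTGAA or in its variant form TTCGAA, and for E2F boxes. The E2F boxes were spelled TTGGCGC in the first form, TTCCCGC in the second form, TTCGCGC in the third form and TTGCCGC in the fourth form. CCAAT was in 14 of 15 mitosis promoters, 10 of 13 DNA replication promoters and 4 of 10 G1 and E2F promoters, against 39.03% of 17491 protein-coding genes. A CHR box was in 12 of 15 mitosis promoters, 3 of 13 DNA replication promoters and 1 of 10 G1 and E2F promoters, against 18.15% of protein-coding genes. E2F boxes ran the other way, with matches in 3 of 15 mitosis promoters, 8 of 13 DNA replication promoters and 5 of 10 G1 and E2F promoters, against 12.18% of protein-coding genes. In 3 members an E2F match shared letters with a CCAAT match on the opposite strand. A match is a run of letters and not a measured binding site.

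The promoters of 6 members are printed 5′ to 3′ along the gene's strand, with every match to the boxes above in capitals. They were picked after the matches were counted, to show both arrangements beside members described below. Mcm3 (chr1:20820263-20820562) and Mcm6 (chr1:128359656-128359955), subunits of the replicative helicase, and Tyms (chr5:30073576-30073875), thymidylate synthase, stand for DNA replication, and Tyms has no match in its window. Ccnb2 (chr9:70421505-70421804), cyclin B2, Top2a (chr11:99024140-99024439), the topoisomerase that untangles sister chromosomes, and Kif11 (chr19:37376132-37376431), the motor that separates spindle poles, stand for mitosis.
Mcm3: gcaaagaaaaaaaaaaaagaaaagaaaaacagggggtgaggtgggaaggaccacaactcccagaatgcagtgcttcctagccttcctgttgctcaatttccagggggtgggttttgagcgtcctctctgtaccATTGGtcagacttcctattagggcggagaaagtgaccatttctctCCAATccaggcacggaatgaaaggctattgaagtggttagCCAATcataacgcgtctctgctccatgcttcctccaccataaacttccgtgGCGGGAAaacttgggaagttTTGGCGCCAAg
Mcm6: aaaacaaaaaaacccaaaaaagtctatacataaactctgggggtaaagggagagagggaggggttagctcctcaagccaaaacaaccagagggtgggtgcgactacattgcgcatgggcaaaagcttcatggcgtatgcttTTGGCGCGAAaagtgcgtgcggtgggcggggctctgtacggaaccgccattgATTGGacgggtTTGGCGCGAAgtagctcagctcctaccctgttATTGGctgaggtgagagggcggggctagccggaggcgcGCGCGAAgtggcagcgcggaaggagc
Tyms: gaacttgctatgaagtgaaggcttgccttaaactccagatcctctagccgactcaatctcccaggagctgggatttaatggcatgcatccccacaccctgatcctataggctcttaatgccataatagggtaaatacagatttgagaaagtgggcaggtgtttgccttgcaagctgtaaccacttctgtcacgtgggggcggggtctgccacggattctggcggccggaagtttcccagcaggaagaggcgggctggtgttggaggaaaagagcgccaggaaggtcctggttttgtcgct
Ccnb2: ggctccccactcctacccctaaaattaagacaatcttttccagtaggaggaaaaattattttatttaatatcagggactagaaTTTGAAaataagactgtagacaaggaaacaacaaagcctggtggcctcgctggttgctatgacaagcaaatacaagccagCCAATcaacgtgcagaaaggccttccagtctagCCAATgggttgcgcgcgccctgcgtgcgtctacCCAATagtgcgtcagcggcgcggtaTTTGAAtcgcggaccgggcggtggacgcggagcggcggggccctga
Top2a: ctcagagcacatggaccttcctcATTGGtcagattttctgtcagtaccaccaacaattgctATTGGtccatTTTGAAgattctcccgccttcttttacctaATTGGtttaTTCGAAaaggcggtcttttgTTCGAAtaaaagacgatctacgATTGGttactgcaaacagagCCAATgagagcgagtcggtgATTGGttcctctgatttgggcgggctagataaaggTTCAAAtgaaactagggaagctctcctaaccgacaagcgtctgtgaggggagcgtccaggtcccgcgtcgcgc
Kif11: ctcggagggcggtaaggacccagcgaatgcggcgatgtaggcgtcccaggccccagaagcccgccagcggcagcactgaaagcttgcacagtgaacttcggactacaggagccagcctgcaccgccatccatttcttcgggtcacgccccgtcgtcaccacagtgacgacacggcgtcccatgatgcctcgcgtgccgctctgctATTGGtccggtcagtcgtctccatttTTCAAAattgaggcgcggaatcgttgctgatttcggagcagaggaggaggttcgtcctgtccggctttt
The Mcm3 window held 3 CCAAT and 3 E2F matches, and the Mcm6 window 2 and 5, with no CHR match in either. Ccnb2 held 3 CCAAT and 2 CHR matches, Top2a 6 and 4, and Kif11 1 of each, with no E2F match in the 3. In Kif11 the CCAAT match began 45 bases before the start and the CHR match 19 bases before it.

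**Figure D1:**
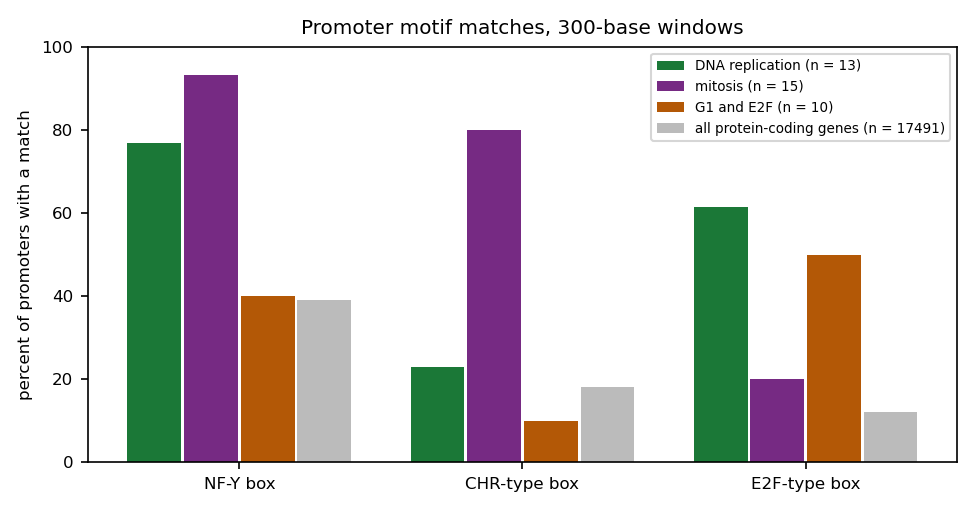
Bars give the percent of promoters, on the y axis, with at least 1 match to the NF-Y box (the letters searched as CCAAT), the CHR box or an E2F box, for the 3 sets of members and for all protein-coding genes. Mitosis promoters stand highest for the CHR box (80%) and DNA replication promoters for E2F boxes (61.54%).

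None of the 49 measured members differed by 2-fold in any comparison. With calcitriol against vehicle, 2.59% of all 16671 measured genes were at least 2-fold apart. With calcidiol against vehicle it was 0.996% of 16664 genes, and with calcitriol against calcidiol 1.87% of 16517 genes. Among the 9639 genes brighter than the 75th percentile, which scatter less, the same shares were 1.47%, 0.519% and 1.04%. At 1.5-fold, Myc was the only member apart between calcitriol and vehicle, where 9.65% of all genes and 5.32% of the brighter ones were. No member was 1.5-fold apart between calcidiol and vehicle, where 4.16% of all genes and 1.72% of the brighter ones were. Between calcitriol and calcidiol Kif11 alone was, higher with calcitriol, where 7.71% of all genes and 3.98% of the brighter ones were. Kif11 lost that call, at 0.21, under another processing of the raw spot signals, normexp background correction with an offset of 50 followed by quantile normalisation, called normexp processing below.

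The members lay close together around no difference. Their differences had a median of 0.03 with calcitriol and -0.05 with calcidiol against vehicle, on the log2 scale used for all differences here, and a median of 0.04 between the hormones. Over all measured genes the medians were -0.00, -0.01 and 0.00. With calcitriol, 38 of the 49 (77.6%) were within 0.2 of vehicle, against 54.7% of all genes and 63.3% of the brighter genes. With calcidiol, 35 of the 49 (71.4%) were, against 67.6% of all genes and 78.0% of those brighter ones, so the members were not closer to vehicle than other bright genes there. The brighter set was chosen as a second background after the values were seen.

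**Figure D2:**
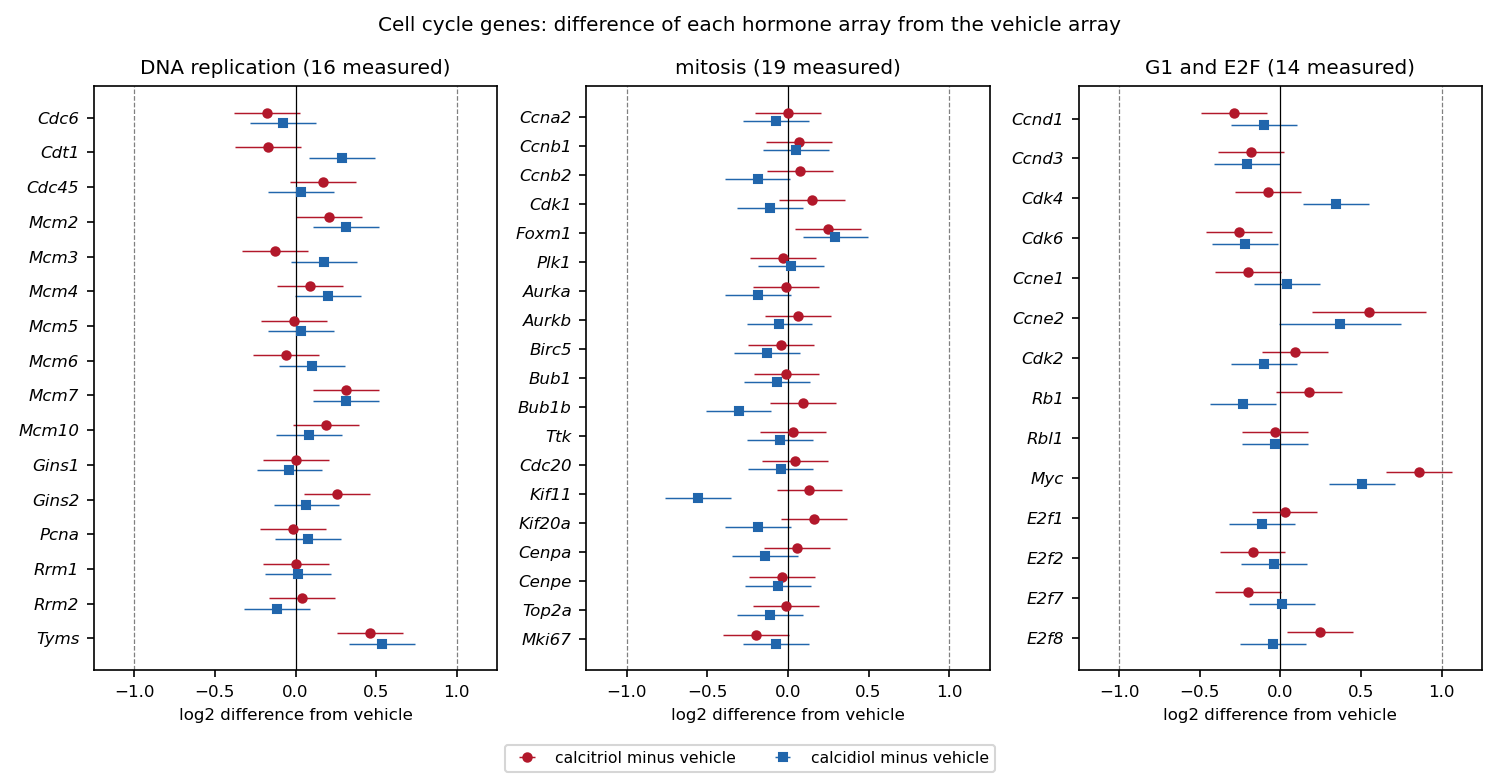
Each point is the log2 difference of calcitriol (red circles) or calcidiol (blue squares) from vehicle for 1 gene, on the x axis, with the scanner's error as a bar and dashed lines at 2-fold. All points lie between the dashed lines, and Myc lies farthest right, at 0.86 with calcitriol.

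Among the DNA replication genes the medians were 0.02 with calcitriol and 0.08 with calcidiol against vehicle, with 10 and 13 of the 16 above 0. In the same comparisons 49.2% and 47.7% of all genes, and 53.8% and 46.4% of the brighter genes, were above 0. The members ran from -0.18 to 0.46 with calcitriol and from -0.11 to 0.53 with calcidiol. Within 0.2 of vehicle, the scanner's error for a single difference, lay 12 of the 16 with calcitriol and 11 with calcidiol. Centring each array on its median in place of its 75th percentile moves every gene by 0.12 for calcitriol against vehicle, by -0.06 for calcidiol against vehicle and by 0.18 between the hormones, and set medians are therefore also given relative to the median of all genes, which this shift does not change. On that measure the DNA replication median was 0.03 with calcitriol and 0.09 with calcidiol against vehicle, and -0.06 between the hormones. With median centring itself the medians against vehicle were 0.15 with calcitriol and 0.02 with calcidiol. Their order is thus reversed, and the counts above 0 depend on the scaling too.

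Tyms, which makes the thymidine nucleotide for DNA synthesis, had the highest value of the replication set with either hormone. Its brightest probe (chr5:30387605-30387664, mm9) read scaled signals of 11049 with calcitriol, 11614 with calcidiol and 8016 with vehicle, where scaled signal is the array signal after the arrays' 75th percentiles were made equal. That is 0.46 ± 0.20 with calcitriol and 0.53 ± 0.20 with calcidiol. The other probes of Tyms did not show it: one read 5642, 6031 and 5820 on the calcitriol, calcidiol and vehicle arrays, and the other read 715.3, 793.9 and 801.2, with differences between -0.16 and 0.05. The value for Tyms therefore rests on 1 of its 3 probes. Rrm1 and Rrm2, the subunits of ribonucleotide reductase, differed from vehicle by 0.00 and 0.04 with calcitriol and by 0.01 and -0.11 with calcidiol.

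The 6 genes of the MCM helicase, Mcm2 to Mcm7, were all above vehicle with calcidiol, with a median of 0.19, and 3 of 6 were above it with calcitriol, with a median of 0.04. With median centring, 5 of 6 were above vehicle with calcidiol, Mcm5 being the exception. Mcm7 read 15618 with calcitriol, 15653 with calcidiol and 12590 with vehicle, a difference of 0.31 ± 0.20 with either hormone, while its dimmer probe gave 0.06 with calcitriol and 0.02 with calcidiol. Mcm2 read 4179, 4490 and 3615 on the same arrays, 0.21 with calcitriol and 0.31 with calcidiol. Mcm3 read 15596 with calcitriol, below the 17011 of vehicle, and 19253 with calcidiol, above it (-0.13 and 0.18). Of the other 3 probes of Mcm3, 1 was above vehicle with calcidiol, at 0.09, and the others were below it, at -0.02 and -0.09. With the mean over all measured probes of a gene, 6 of 6 were above vehicle with calcidiol, with a median of 0.15. The remaining subunits lay between -0.06 and 0.20. On its brightest probe, each of the 6 was lower with calcitriol than with calcidiol, with a median of -0.11. With median centring, which adds 0.18 to every gene here, 1 of 6 was, and the median was 0.08. Relative to the median of all genes, 6 of 6 were lower under both scalings, with a median of -0.11, and 5 of 6 with quantile normalisation. Between the hormones, the dimmer probes gave 0.04 for Mcm7, -0.06 for Mcm6, and 0.09, 0.07 and -0.19 for Mcm3. The direction for Mcm3 and Mcm7 thus differs between probes.

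Cdc6 and Cdt1 load the helicase on origins. Cdc6 was the lowest of the replication set with calcitriol, at 1334, against 1429 with calcidiol and 1507 with vehicle (-0.18 and -0.08). A dimmer probe for the same Cdc6 transcript read 1153, 1054 and 1182 on these arrays (-0.04 and -0.17). Which hormone read lower thus differs between the probes. Cdt1 read 6835 with calcitriol, 9387 with calcidiol and 7695 with vehicle, and its difference of -0.46 ± 0.20 between calcitriol and calcidiol was the lowest of all members. Its single probe lay in the outermost row or column of the array, and with normexp processing the value was -0.75. Among all genes, 11.5% of the 191 read from that position were at least 2-fold apart between the hormones, against 1.51% of the 14953 read from beyond the outermost 6 rows and columns. On their brightest probes, the factors that activate the helicase, Cdc45, Mcm10, Gins1 and Gins2, were all above vehicle with calcitriol, from 0.01 to 0.25. They lay between -0.04 and 0.08 with calcidiol. Gins2 had the highest of these with calcitriol, at 5609 with calcitriol, 4928 with calcidiol and 4701 with vehicle. Their dimmer probes gave 0.26 for Cdc45, 0.005 for Mcm10, 0.31 for Gins1 and 0.02 for Gins2 with calcitriol. With calcidiol the same probes gave -0.43, 0.15, 0.05 and 0.004. Pcna, the sliding clamp of the DNA polymerases, read 17814 with calcitriol, 19001 with calcidiol and 17978 with vehicle, within 0.08 of vehicle.

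Among the mitosis genes the median was 0.04 with calcitriol and -0.08 with calcidiol against vehicle, with 11 and 3 of the 19 above 0. Over all genes, 8209 of 16671 were above 0 with calcitriol and 7955 of 16664 with calcidiol. The count of 16 of 19 below vehicle with calcidiol was 18 of 19 with median centring and between 16 and 18 under the other scalings. Between the hormones, 16 of 19 were higher with calcitriol than with calcidiol, with a median of 0.09, against 8362 of 16517 genes in all and 56.6% of the brighter genes. All 19 were higher with median centring, 15 with quantile normalisation and 14 with cyclic loess. Relative to the median of all genes, the mitosis median was 0.05 with calcitriol and -0.07 with calcidiol against vehicle, and 0.09 between the hormones. The single differences were small, 16 of 19 with calcidiol and 18 of 19 with calcitriol being within 0.2 of vehicle. The 3 comparisons share arrays, so a high or low reading on 1 array enters a pair of them.

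Kif11 read 935.7 with calcitriol, 579.2 with calcidiol and 852.9 with vehicle. Its difference of -0.56 ± 0.20 with calcidiol was the lowest of all members against vehicle, and its level with calcitriol was 1.62-fold that with calcidiol (0.69). The calcidiol array alone was low. Kif11 has 1 measured probe (chr19:37495755-37495814, mm9), 5 rows or columns from the array edge, and with normexp processing the differences were -0.22 from vehicle with calcidiol and 0.21 between the hormones. Bub1b, a spindle checkpoint kinase read from a probe equally near the edge, was next, at 1141, 865.8 and 1071 on the calcitriol, calcidiol and vehicle arrays (0.09 and -0.31). Kif20a, a motor of cytokinesis, read 4360, 3428 and 3897 on the same arrays (0.16 and -0.18). Ccnb2 read 12828 with calcitriol, 10704 with calcidiol and 12198 with vehicle (0.07 and -0.19), the lowest among mitotic cyclins and kinases with calcidiol.

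The other motors and centromere genes, Cenpa and Cenpe, were below vehicle with calcidiol too, at -0.14 and -0.06. So were the checkpoint genes Bub1, Ttk and Cdc20, at -0.07 to -0.05 on their brightest probes. The dimmer probes of Ttk gave -0.46, -0.35 and -0.21 with calcidiol, and that of Cdc20 gave -0.02. The 3 mitosis genes above vehicle with calcidiol were Foxm1, Ccnb1 and Plk1. Foxm1, a transcription factor of the G2/M wave, was the highest of the set with either hormone, at 2092 with calcitriol, 2160 with calcidiol and 1761 with vehicle (0.25 ± 0.20 and 0.29 ± 0.20). A dimmer probe for the same Foxm1 transcript read 94.6, 87.5 and 95.4 on the same arrays, which is -0.01 and -0.12, and the mean over probes with calcidiol was 0.085. Plk1, a kinase of mitotic entry, read 8821, 9111 and 9001 on the same arrays. Cdk1, the kinase that drives mitosis, read 4141 with calcitriol, 3449 with calcidiol and 3730 with vehicle (0.15 and -0.11). Ccna2, cyclin A2, gave -0.002 and -0.07 on its brightest probe. Its other probe, for the same transcript, read 6276, 5037 and 6027 on the same arrays (0.06 and -0.26). Mki67, the gene of the Ki-67 proliferation marker, was the lowest of the set with calcitriol, at 9163, against 9968 with calcidiol and 10507 with vehicle (-0.20 and -0.08). Top2a, at 11722, 10920 and 11801 on the same arrays, differed by -0.01 and -0.11.

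**Figure D3:**
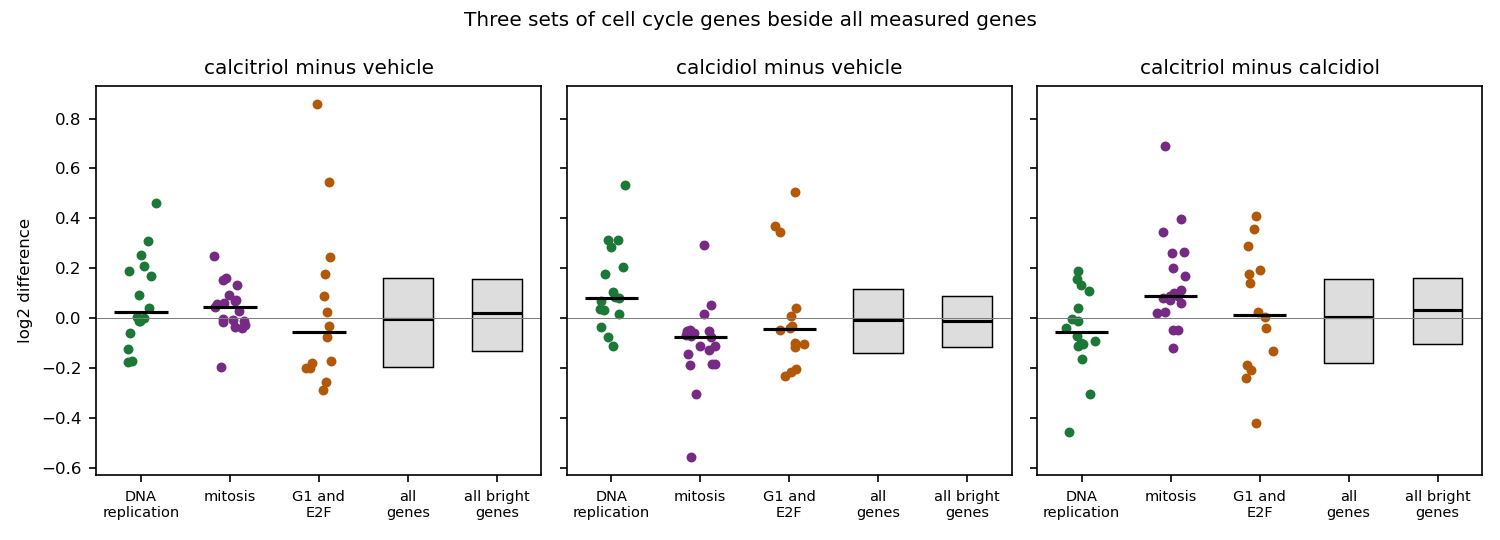
Points are the log2 differences of the members, 1 panel per comparison, with a line at each set's median, beside boxes from the lower to the upper quartile of all measured genes and of those brighter than the 75th percentile. The mitosis points sit mostly below 0 for calcidiol minus vehicle (median -0.08) and mostly above 0 for calcitriol minus calcidiol (median 0.09).

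The difference between the replication and the mitosis medians does not depend on how arrays are scaled by a constant. It was 0.16 with calcidiol against vehicle, -0.02 with calcitriol against vehicle and -0.15 between the hormones. The value with calcitriol against vehicle changed sign with normexp processing (0.04), the mean over probes (0.07) and the outermost 6 rows and columns left out (0.05). The others kept their sign in every setting tried. Variation between cultures, which would be needed to weigh these differences, was not measured. Other genes of the same processes, listed by name, were set beside the members. Of 35 further DNA replication genes, 23 were above vehicle with calcitriol and 18 with calcidiol, with medians of 0.06 and 0.02. None was 1.5-fold apart with calcitriol against vehicle, with calcidiol against vehicle or between the hormones. In these comparisons 9.65%, 4.16% and 7.71% of all genes, and 5.32%, 1.72% and 3.98% of the brighter genes, were. The median of 0.02 with calcidiol stands beside 0.08 for the replication members. The highest of the further genes with calcitriol was Pola2, a polymerase alpha subunit, at 0.52, and the lowest was Pold2, a polymerase delta subunit, at -0.32.

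Of 47 further mitosis gene names, 44 were measured. The names include Knl1 and its former name Casc5, under which that gene was measured. Of the 44, 28 were above vehicle with calcitriol and 14 with calcidiol, with medians of 0.05 and -0.07, close to those of the members. Cenpf, a kinetochore protein, was the lowest with calcidiol, at 6091 with calcitriol, 3723 with calcidiol and 5266 with vehicle (0.21 and -0.50), and its probe also lay 5 rows or columns from the edge. Gtse1, a microtubule-binding protein of G2 and S phase, was the exception in size, at 121.7 with calcitriol, 479.8 with calcidiol and 426.2 with vehicle. It was 3.50-fold lower with calcitriol than with vehicle (-1.81 ± 0.21) and 3.94-fold lower than with calcidiol, on a single measured probe (chr15:85706887-85706946, mm9). Of 13 further genes of the RB, E2F and DREAM complexes, none was 1.5-fold apart, with medians of -0.02 and -0.05 against vehicle. Over all genes the 1.5-fold shares were 9.65% with calcitriol and 4.16% with calcidiol against vehicle, and 7.71% between the hormones. In a list of 13 such shares leave few genes to be called.

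In the G1 and E2F set the medians were -0.05 with calcitriol and -0.04 with calcidiol against vehicle, with 6 and 5 of the 14 measured above 0. Relative to the median of all genes they were -0.05 and -0.03, and the median between the hormones was 0.01. Myc, the transcription factor that drives growth and G1 entry, had the largest difference of all members. Its brightest probe (chr15:61821417-61821476, mm9) read 668.6 with calcitriol, 522.5 with calcidiol and 368.4 with vehicle. It was 1.81-fold higher with calcitriol (0.86 ± 0.20) and 1.42-fold higher with calcidiol (0.50 ± 0.20), and its level with calcitriol was 1.28-fold that with calcidiol (0.36). A dimmer probe read 67.3, 44.8 and 39.7 on the same arrays, which is 0.76 with calcitriol, 0.17 with calcidiol and 0.59 between the hormones. Both probes gave the order calcitriol, calcidiol, vehicle.

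The D-type cyclins and their kinases act first in G1, and the 4 measured were below vehicle with calcitriol. Ccnd1 read 292.7 with calcitriol, 333.1 with calcidiol and 357.6 with vehicle (-0.29 and -0.10). Ccnd3 read 5801, 5704 and 6577 on the same arrays (-0.18 and -0.21), and Cdk6 1780, 1830 and 2127 (-0.26 and -0.22). The Cdk6 probe lay 2 rows or columns from the edge, and with normexp processing its difference with calcitriol was -0.47. The fourth, Cdk4, read 10635 with calcitriol, 14240 with calcidiol and 11222 with vehicle (-0.08 and 0.34). Its other 3 probes were above vehicle with calcitriol, by 0.20, 0.20 and 0.51, so the direction for Cdk4 with calcitriol differs between its probes, while all 4 were above vehicle with calcidiol. With median centring, 3 of the 4 genes were below vehicle with calcitriol, and Cdk4 was above it, while relative to the median of all genes all 4 were below.

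Of the E-type cyclins, Ccne1 read 1911 with calcitriol, 2255 with calcidiol and 2192 with vehicle (-0.20 and 0.04). Ccne2 read 25.2, 22.3 and 17.3 on the same arrays, near the lowest signals called well above background, and its differences of 0.55 and 0.37 carried a scanner error of 0.35 or more. Rb1, the retinoblastoma protein, read 1876 with calcitriol, 1413 with calcidiol and 1659 with vehicle (0.18 and -0.23), whereas its other probe gave -0.33 and 0.19, the opposite directions, and with normexp processing the brightest probe gave 0.01 with calcidiol. Rbl1, its relative p107, was within 0.03 of vehicle with both hormones on its brightest probe. Its dimmer probes gave -0.29 and -0.08 with calcitriol and 0.09 and -0.13 with calcidiol. On their brightest probes E2f1 and E2f2, activators of the G1/S genes, lay between -0.17 and 0.03. The repressors E2f7 and E2f8 lay at -0.20 and 0.24 with calcitriol and at 0.01 and -0.05 with calcidiol. Dimmer measured probes gave -0.22 for E2f2, -0.15 for E2f7 and 0.02 for E2f8 with calcitriol. With calcidiol they gave -0.06, -0.25 and 0.34, so which hormone read higher for E2f8 differs between its probes. Cdkn1a, the p21 inhibitor of these kinases, read 593.8 with calcitriol, 1132 with calcidiol and 1633 with vehicle, 2.75-fold lower with calcitriol than with vehicle (-1.46). It was the lowest of 7 CDK inhibitor genes, of which 4 were above vehicle with calcitriol, with a median of 0.25 and Cdkn2b, the p15 gene, highest at 0.75 (1.68-fold).

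**Figure D4:**
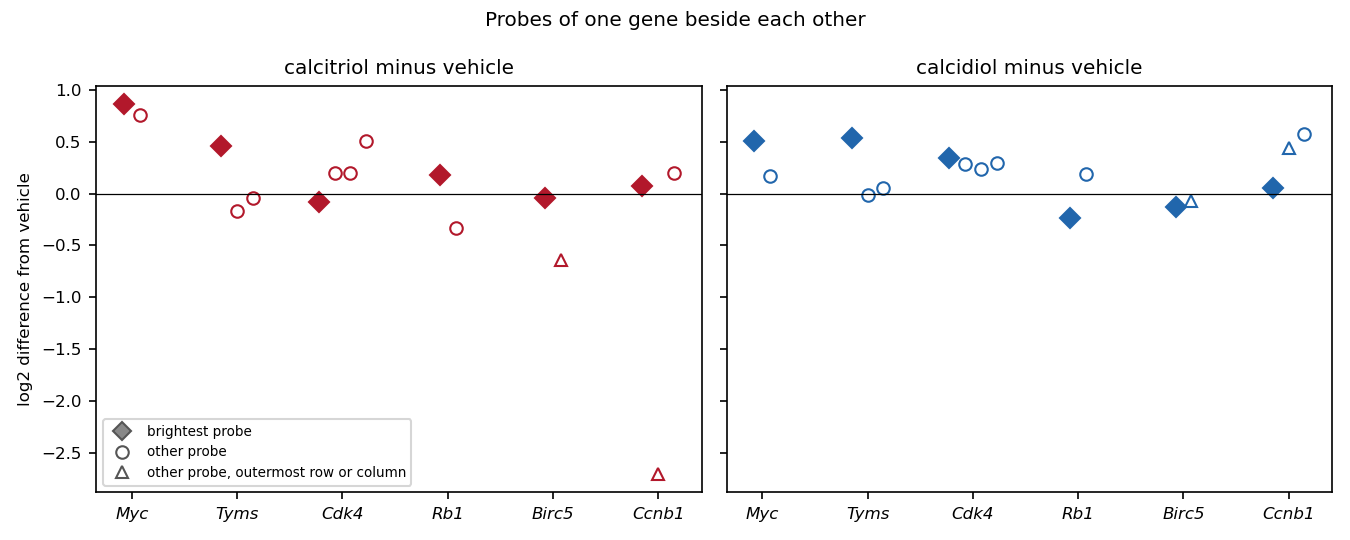
Each mark is 1 probe's log2 difference from vehicle, with calcitriol on the left and calcidiol on the right, for 6 genes chosen after the values were seen. Filled diamonds are the brightest probes used for the members, and triangles are probes in the outermost row or column, of which one of Ccnb1 lies at -2.70 with calcitriol while its brightest probe lies at 0.07.

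Of the 49 members, 26 had another measured probe, and in 13 of these the probes are listed for more than 1 transcript, so a gap between probes may also be one between transcripts. The brightest probe and the mean of the others had the same direction in 17 of 26 with calcitriol, in 18 with calcidiol and in 12 between the hormones, and the median gap between them was 0.18, 0.10 and 0.22. Gaps over 0.5 were found in Birc5, Ccnb1, Rb1 and Tyms with calcitriol, in Tyms with calcidiol, and in Birc5, Ccnb1, Cdc45, E2f8 and Rb1 between the hormones. In Ccnb1, cyclin B1, a probe in the outermost row or column read 65.0 with calcitriol, 574.8 with calcidiol and 423.6 with vehicle, while the brightest read 5265, 5196 and 5017. In Birc5, the survivin gene of the chromosomal passenger complex, a probe in that position gave -0.64 with calcitriol, against -0.04 from the brightest. The median gaps stand beside median sizes of the members' own differences of 0.092 with calcitriol, 0.104 with calcidiol and 0.121 between the hormones.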

How the data were processed

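Total RNA labelled with Cy3 was hybridised to 3 arrays, 1 per group. Spot values in the deposited scanner files are linear intensity values, background-subtracted by Agilent Feature Extraction. Its version is 10.7.1.1 per the file headers, which place probes on mm9, and 9.5.1.1 per the submitters' processing notes. The deposited value table of intensity was used only as an alternative.

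Control spots and probes with an outlier flag on any array were left out. From the log2 signal of a probe the 75th percentile of its array was subtracted (379.8 for calcitriol, 400.8 for calcidiol and 371.1 for vehicle). Both arrays of a comparison had to call the probe well above background. The counting was tested on simulated data. Python 3.11.15 with pandas 2.3.3 and numpy 2.4.6, R 4.3.3 with limma 3.58.1 and matplotlib 3.10.9 were used.

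No test was run, as each group had 1 array, and the number of arrays limits the precision. Thresholds of 2-fold and 1.5-fold describe size. The members and lists were chosen with earlier results of these data known. The naming rule took members past 2-fold, the 3 highest and 3 lowest of each set, members whose probes were over 0.5 apart, and pathway genes past 2-fold or at either end of a list. Other members' values were added for their role.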

Additional observations from a re-analysis of the deposited data

How the results depend on the processing

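With 1 array per group, no setting measures variation between cultures. Depth on an array is a matter of signal over background, which limits Ccne2. Ccnd2 was not detected, and whether its transcript was absent or too scarce to read was not tested. No paired analysis was possible because each group had 1 array. Settings tried were cyclic loess, quantile normalisation, normexp on the raw spot signals with an offset of 50 followed by quantile normalisation (normexp processing), median centring, the deposited value table, an offset of 32, a 25th percentile filter, no background requirement, keeping flagged spots, the mean over probes, leaving out the outermost 6 rows and columns, and thresholds of 1.5-fold and 3-fold.

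Centring each array on its median shifted all genes together, which by construction set the DNA replication, mitosis and G1 and E2F medians to 0.15, 0.17 and 0.069 with calcitriol against vehicle, and to 0.13, 0.27 and 0.20 between calcitriol and calcidiol. The same setting gave the mitosis median -0.14 with calcidiol against vehicle. Leaving out the outermost rows and columns gave a DNA replication median of 0.091 with calcitriol against vehicle and a G1 and E2F median of 0.083 between the hormones. The DNA replication median with calcitriol against vehicle was -0.01 with quantile normalisation, cyclic loess and the deposited value table. Between the hormones, normexp processing gave a mitosis median of 0.16, and the mean over probes gave 0.17 for mitosis and -0.056 for G1 and E2F. The cause of the normexp processing and probe-mean shifts was not tested. The mean over probes put 1 member, Ccnb1, 2-fold apart between the hormones, through its outermost probe. A 1.5-fold threshold counted 1 member with calcitriol against vehicle and 1 between the hormones. Of 96 named single-gene differences, 10 moved by more than the scanner's error with normexp processing and 17 with the mean over probes. The 96 include genes with a single measured probe, such as Kif11 and Cdt1, which the mean over probes cannot move. Over all genes, the 161 higher and 271 lower by 2-fold with calcitriol against vehicle were 223 and 183 with median centring, the 142 and 24 with calcidiol against vehicle were 118 and 34, and the 77 and 232 between the hormones were 133 and 133. The totals of 432, 166 and 309 in these comparisons became 198, 81 and 162 with normexp processing, which changes several steps together, 244, 84 and 161 with the offset of 32 alone, 233, 79 and 165 with the 25th percentile filter, and 3066, 2619 and 2863 with no background requirement.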
